A study of Equus caballus with 45 samples.

Results

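The genes THY1, ENG, NT5E, CD44, ALCAM, MCAM, VCAM1 and ICAM1, which encode surface markers of mesenchymal stromal cells (MSC) and adhesion molecules, were described across MSC and 3 kinds of joint cells of the horse. They were chosen by name, and all 8 were found in both count tables, among 20881 protein coding genes. RNA was sequenced in 45 libraries, 12 of MSC and 11 each of synoviocytes, chondrocytes and macrophages. The counts measure RNA, so surface protein was not observed.

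MSC came from sternal bone marrow of young adult horses, with 1 library from each of the donors PC, 99 and 92 in every group. They were left untreated, given the TLR3 agonist poly I:C or the STING agonist 2′3′-cGAMP for 2 h and then cultured for 24 h, or carry a label CpG that the methods do not describe. Both agonists were at 10 ng/mL by the labels, whereas the methods give the same number in micrograms. Synoviocytes and chondrocytes came from the stifle of a single healthy horse and macrophages were grown from blood monocytes of a single horse. In each of these cell types, 9 libraries were from cells given IL-1β and TNF-α together with medium conditioned by MSC (MSC-CM) that were resting, activated through TLR3 (TLR-MSC-CM) or activated through STING (STING-MSC-CM) for 24 h and then cultured for a further 24 h (n = 3 per medium, 1 for each of the MSC donors PC, ORC and AG1). The labels thus give 5 names where the methods give 3 horses, and the sequenced MSC and the media share only the name PC. The names are read here as MSC donors because the methods take each joint cell type from a single horse. However, the sample titles also put ORC or PC on the joint-cell libraries that had no MSC-CM. The cytokines were at 20 ng/mL by the labels for synoviocytes and chondrocytes, and at 10 ng/mL for macrophages. The methods give 20 ng/mL for macrophages as well. By the labels, macrophages thus differ from the other joint cells in cytokine dose as well as in cell type. All 9 libraries with MSC-CM therefore carry the cytokines, 1 further library had the cytokines only, and 1 had no addition. Under this reading of the names, replicates of a joint cell type differ in the MSC donor of the medium and not in the horse. The p-values there then measure the spread between media. The figure legends instead call them biological replicates of the joint cells, so the reading is not certain.

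THY1 (CD90), ENG (CD105) and NT5E (CD73) are the markers by which cultured MSC are conventionally defined. THY1 is a GPI-anchored immunoglobulin-family protein that takes part in cell contact, ENG is an accessory receptor for TGF-β family ligands, and NT5E is the ectoenzyme that makes adenosine from AMP outside the cell. CD44 is the main receptor for hyaluronan, the large sugar polymer of synovial fluid and cartilage matrix. ALCAM (CD166) binds itself and CD6, MCAM (CD146) marks perivascular stromal cells and endothelium, and VCAM1 and ICAM1 hold leukocytes through the α4 and β2 integrins and are classical targets of NF-κB in cytokine-treated stroma.

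Library totals ran from 23525704 to 54103873 counts. Levels are given as CPM, a gene's count scaled by the total of its library, in which 3 counts, taken as the floor, equal 0.0554 to 0.128 CPM. Gene lengths were not available, so levels were compared between cells and not between genes. The summed level of 12 macrophage markers was 11000 to 14400 CPM in macrophages, 12.8 to 19.8 in synoviocytes, 11.3 to 40.7 in chondrocytes and 9.68 to 325 in MSC. PTPRC did not exceed 0.239 CPM outside macrophages, whereas CD68 was at up to 18.0 CPM in synoviocytes, 9.42 to 38.3 in chondrocytes and 8.28 to 324 in MSC. The cartilage markers were low in chondrocytes, with ACAN at 6.12 to 101 CPM. COL2A1, the collagen that defines hyaline cartilage, was at the floor in 6 of 11 libraries. Summed over 11 cartilage markers, the level was 41.0 to 321 CPM in chondrocytes and 8.73 to 22.7 in synoviocytes. With resting MSC-CM, ACAN and COMP were higher in chondrocytes than in synoviocytes (log2 4.44 and 4.32) and MATN3 was lower (−3.55). CD34, a marker that MSC should lack, was at the floor in 7 of 12 MSC libraries and reached 1.51 CPM. Libraries that stood apart were those of chondrocytes with ORC media, whose correlation of log2(CPM + 1) over 10385 genes with the other chondrocyte libraries given MSC-CM was 0.954 to 0.969 against 0.989 to 0.997 among those, and the TLR3 library of MSC donor 92.

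The levels separated macrophages from the 3 stromal cell types most clearly at THY1, NT5E and MCAM. THY1 ranged from 134 to 871 CPM in MSC (median 305), from 278 to 690 in synoviocytes (median 324), from 44.8 to 237 in chondrocytes (median 62.5) and from 1.10 to 5.17 in macrophages (median 2.61). NT5E was at 5.23 to 24.5 CPM in MSC, 10.8 to 22.3 in synoviocytes and 21.0 to 49.0 in chondrocytes, and macrophages held 0 to 13 counts of it. MCAM was highest in MSC, at 15.1 to 180 CPM, against 2.53 to 4.77 in synoviocytes, 2.82 to 13.3 in chondrocytes and 0 to 11 counts in macrophages. MSC and joint cells are in separate tables, so the order between them is a description and was not tested.

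The other members were well above the floor in all 4 cell types. ENG overlapped in all 4 cell types, at 243 to 472 CPM in MSC, 274 to 409 in synoviocytes, 247 to 321 in chondrocytes and 259 to 474 in macrophages. CD44 was highest in macrophages, at 1117 to 1493 CPM, against 487 to 554 in synoviocytes, 247 to 582 in chondrocytes and 169 to 557 in MSC. ICAM1 followed the same order at its top, with 736 to 1411 CPM in macrophages, 157 to 363 in synoviocytes, 85.5 to 220 in chondrocytes and 32.6 to 179 in MSC. VCAM1 was highest in synoviocytes, at 773 to 1264 CPM, and at 12.3 to 36.9 in MSC, a range that overlapped those of chondrocytes (18.8 to 281) and macrophages (8.44 to 188). ALCAM was at 6.37 to 77.8 CPM in MSC, 66.2 to 136 in synoviocytes, 74.6 to 314 in chondrocytes and 143 to 374 in macrophages.

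**Figure D1:**
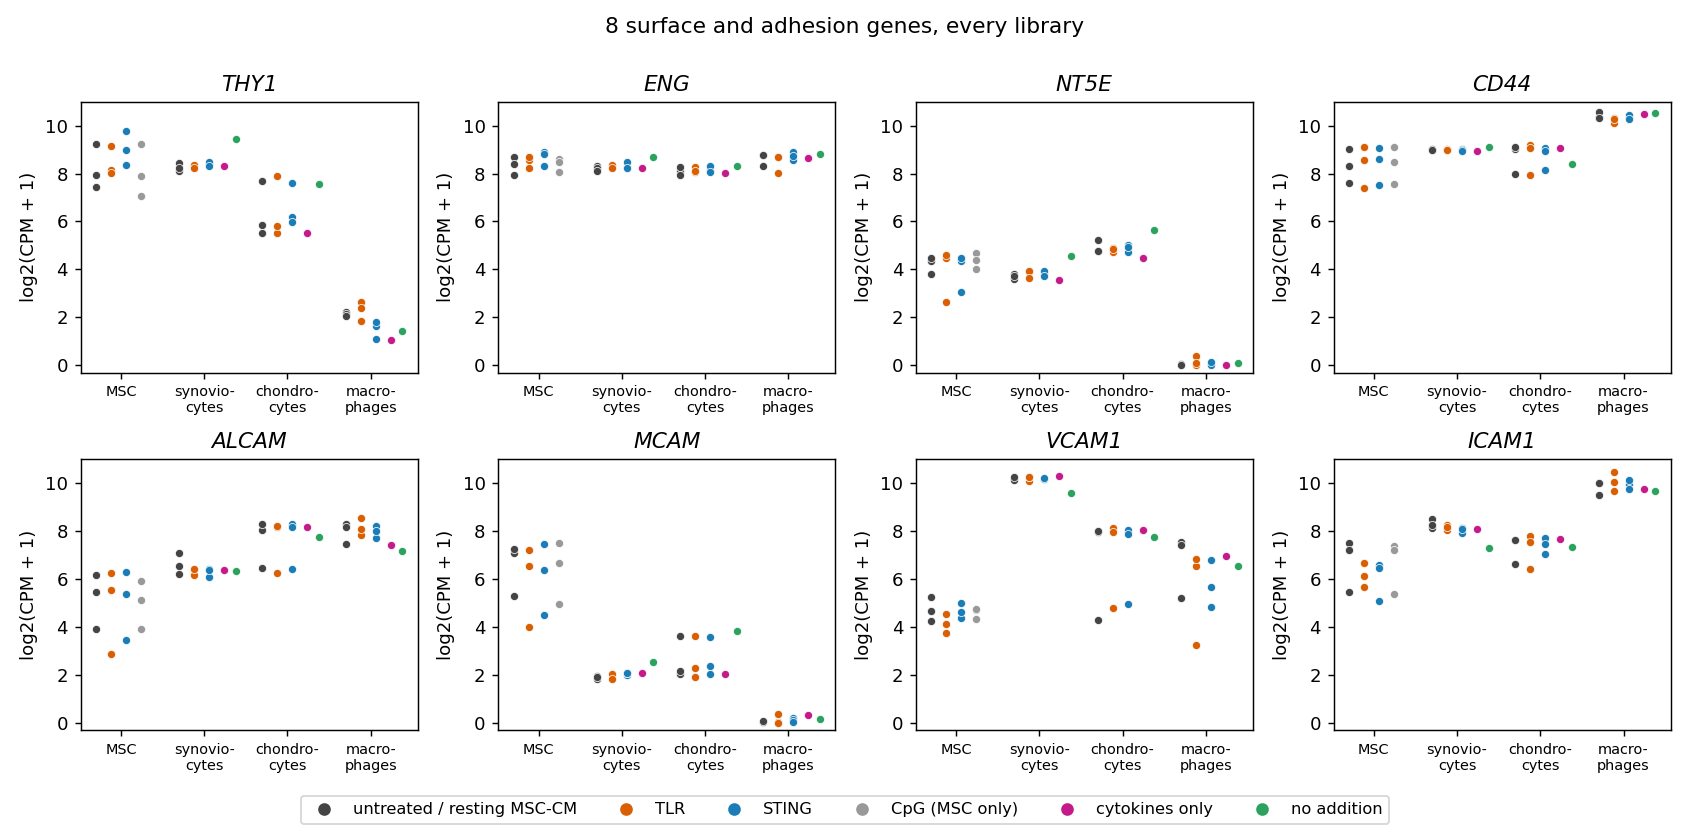
Level of each gene in all 45 libraries, as log2(CPM + 1) on the vertical axis, by cell type and coloured by condition; each point is 1 library. THY1, NT5E and MCAM are lowest in macrophages, CD44 and ICAM1 highest there, and VCAM1 is highest in synoviocytes.

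Among the joint cells given resting MSC-CM (n = 3 each), all 8 members differed between macrophages and synoviocytes in edgeR (quasi-likelihood test, p-values adjusted by Benjamini-Hochberg over the 15599 genes tested), where 71.6% of all genes were called. THY1 was at 3.39 ± 0.290 CPM (SD, n = 3) in macrophages, 307 ± 33.4 in synoviocytes and 103 ± 90.3 in chondrocytes, where the libraries with AG1, ORC and PC media were at 57.3, 207 and 44.96. In these bulk libraries fewer cells of a type and less RNA per cell cannot be told apart. Its log2 fold change was −6.53 (SE 0.60) against synoviocytes and −4.95 (SE 0.56) against chondrocytes. NT5E had 0 or 1 counts and MCAM 1 or 2 counts in these macrophage libraries. Against the floor of 3 counts per library, NT5E was at least 87.0-fold higher in synoviocytes and at least 208-fold higher in chondrocytes than in macrophages, and MCAM at least 19.9-fold and 24.7-fold higher. The groups of both genes did not overlap, for which no share over all genes is given.

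The genes that were higher in macrophages were CD44, ICAM1, ENG and ALCAM. CD44 was 1.39 (SE 0.24) higher on the log2 scale than in synoviocytes and 1.62 (SE 0.24) higher than in chondrocytes, and ICAM1 was 1.55 (SE 0.25) and 2.51 (SE 0.26) higher. ALCAM was 1.34 (SE 0.41) higher than in synoviocytes (edgeR adjusted p = 0.0128) and its log2 difference from chondrocytes was 0.21 (SE 0.40, adjusted p = 0.659). ENG was 0.41 (SE 0.15) higher than in synoviocytes (edgeR adjusted p = 0.0304) and 0.51 (SE 0.15) higher than in chondrocytes. VCAM1 was lower than in synoviocytes, with a log2 fold change of −3.16 (SE 0.83), and was not called against chondrocytes (−0.42, SE 0.77). In all, 6 members were called between macrophages and chondrocytes, where 71.5% of all genes were. Without the media of donor ORC 7 members were called against synoviocytes, where 70% of all genes were called, and ENG was no longer among them (log2 0.32, edgeR adjusted p = 0.108). ENG also lost its call without either of the macrophage libraries of donors ORC and PC or the synoviocyte libraries of donors ORC and PC, with log2 differences of 0.33, 0.34, 0.39 and 0.36, and ALCAM lost it without the synoviocyte library of donor AG1 (1.17, edgeR adjusted p = 0.0527).

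Chondrocytes and synoviocytes differed at 4 members, where 18.1% of the genes tested were called. VCAM1 was at 1106, 1134 and 1219 CPM in synoviocytes and at 247, 18.8 and 259 in chondrocytes with media of donors AG1, ORC and PC. Its log2 fold change was −2.74 (SE 0.82, edgeR adjusted p = 0.0423) in chondrocytes. ICAM1 (279 to 363 CPM in synoviocytes, 97.6 to 198 in chondrocytes) and THY1 were also lower in chondrocytes, by log2 values of −0.96 (SE 0.25) and −1.58 (SE 0.47), whereas NT5E was higher, at 26.6 to 36.4 CPM against 11.1 to 13.1 (log2 1.29, SE 0.19). MCAM, at 3.15 to 11.4 CPM in chondrocytes and 2.53 to 2.94 in synoviocytes, was not called. The differences of ALCAM (1.13, SE 0.41), MCAM (SE 0.45, edgeR adjusted p = 0.114), CD44 (−0.23, SE 0.24) and ENG (−0.11, SE 0.15) did not pass.

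These calls depended on single libraries. With the medium donor as a block, 3 members were called, where 19.4% of all genes were, and VCAM1 was not (edgeR adjusted p = 0.0610). Between 1 and 5 members were called when any 1 library was left out. NT5E was the member called without the synoviocyte library of donor ORC or that of donor PC, and 2 members were called without the synoviocyte library of donor AG1 or the chondrocyte library of donor AG1 or PC. Without the ORC media 5 members were called, where 20.8% of all genes were. ALCAM was then 1.76 (SE 0.14) higher in chondrocytes on the log2 scale, THY1 differed by −2.69 (SE 0.15), and MCAM moved to 0.19.

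The ligands and receptors with which these molecules pair were read against the 71.6% of all genes called between macrophages and synoviocytes. Of 13 measured partners (integrin chains, galectins, CD6 and the ERM linker proteins that anchor CD44 and ICAM1 to actin), 8 were higher and 5 lower in macrophages than in synoviocytes, with a median log2 difference of 2.99 against 0.04 over all genes. ITGB2, the β2 integrin chain that binds ICAM1, was at 596 to 753 CPM in macrophages and at no more than 0.639 in the other cells. ITGA4, which pairs with ITGB1 to bind VCAM1, was at 359 to 592 CPM in synoviocytes and was lower in chondrocytes by a log2 value of −1.84 (SE 0.15, edgeR adjusted p = 1.85e-05). CD6, the counter-receptor of ALCAM, was at 53.1 to 98.4 CPM in macrophages and at the floor in all synoviocyte and chondrocyte libraries. Of 8 measured genes of adenosine handling, 6 were higher and 1 lower in macrophages than in synoviocytes, again where 71.6% of all genes were called. ENTPD1 (CD39), which supplies the AMP that NT5E uses, was higher by 7.90 (SE 0.40) in macrophages on the log2 scale (edgeR adjusted p = 2.63e-08).

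The other gene lists around the members are given by their counts, in macrophages against synoviocytes, where 71.6% of all genes were called, and then in chondrocytes against synoviocytes, where 18.1% were. With lists of this size, shares such as 5 of 10 hyaluronan genes in macrophages and 4 of 20 other adhesion molecules in chondrocytes were below or near those of all genes. Of 14 further surface markers of MSC, 4 were higher and 9 lower in macrophages, and 1 was higher and 4 lower in chondrocytes. PDGFRA, a growth factor receptor of stromal cells, differed by −11.9 (SE 0.35) in macrophages, and the pericyte proteoglycan CSPG4 by 3.08 (SE 0.24) in chondrocytes. Of 14 genes of endoglin and TGF-β signalling, 4 were higher and 9 lower in macrophages, and 3 were higher and 3 lower in chondrocytes. ID1, a target of BMP signalling, differed by −6.96 (SE 0.29) in macrophages. Of 10 hyaluronan genes, 1 was higher and 4 lower in macrophages, among them CEMIP, which degrades hyaluronan (−4.53, SE 0.28), and 2 were higher and 2 lower in chondrocytes, among them the hyaluronan-binding proteoglycan VCAN (−2.73, SE 0.45). Of 20 other adhesion molecules, 12 were higher and 4 lower in macrophages, among them CDH11, the cadherin of synovial fibroblasts (−9.93, SE 0.42), and 2 were higher and 2 lower in chondrocytes, among them JAM2 (3.55, SE 0.43).

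IL-1β plus TNF-α without MSC-CM were compared with no addition in each cell type, with 1 library per condition and so no replicate check. The synoviocyte pair also differed in title, PC with the cytokines and ORC without. Ratios below are of CPM, with exact 95% intervals that cover counting error only. In synoviocytes THY1 was at 315 CPM with the cytokines and 690.4 without, 2.19-fold lower (2.14 to 2.25), and NT5E at 10.8 and 22.3 CPM, 2.06-fold lower (1.80 to 2.37). These were the 2 members past 2-fold, against 8.72% of all genes in either direction. VCAM1 was at 1264 CPM with the cytokines and 773 without, a ratio of 1.63 (1.61 to 1.66), and ICAM1 at 270.1 and 157, a ratio of 1.72 (1.66 to 1.78). The 3 libraries with resting MSC-CM lay at 278 to 343 CPM for THY1 and 1106 to 1219 for VCAM1, on the side of the cytokine library.

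In chondrocytes 3 members were past 2-fold, all lower with the cytokines, where 14.9% of all genes were past 2-fold. THY1 was at 44.8 CPM with the cytokines and 189 without, 4.21-fold lower (3.99 to 4.45). MCAM, with 124 and 345 counts, was 4.25-fold lower (3.45 to 5.26), and NT5E was 2.33-fold lower (2.13 to 2.54). CD44 was the member with the highest ratio, at 533 CPM with the cytokines and 334 without (1.59, 1.55 to 1.63), followed by ALCAM (1.36), ICAM1 (1.24) and VCAM1 (1.23). In macrophages 0 of the 6 members with at least 10 counts were past 2-fold, where 4.28% of all genes were. Their ratios ran from 0.651 for THY1 (0.387 to 1.07, on 27 and 44 counts) to 1.35 for VCAM1 (1.28 to 1.43). By the labels the macrophages had the cytokines at 10 ng/mL, so cell type and dose cannot be told apart.

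**Figure D2:**
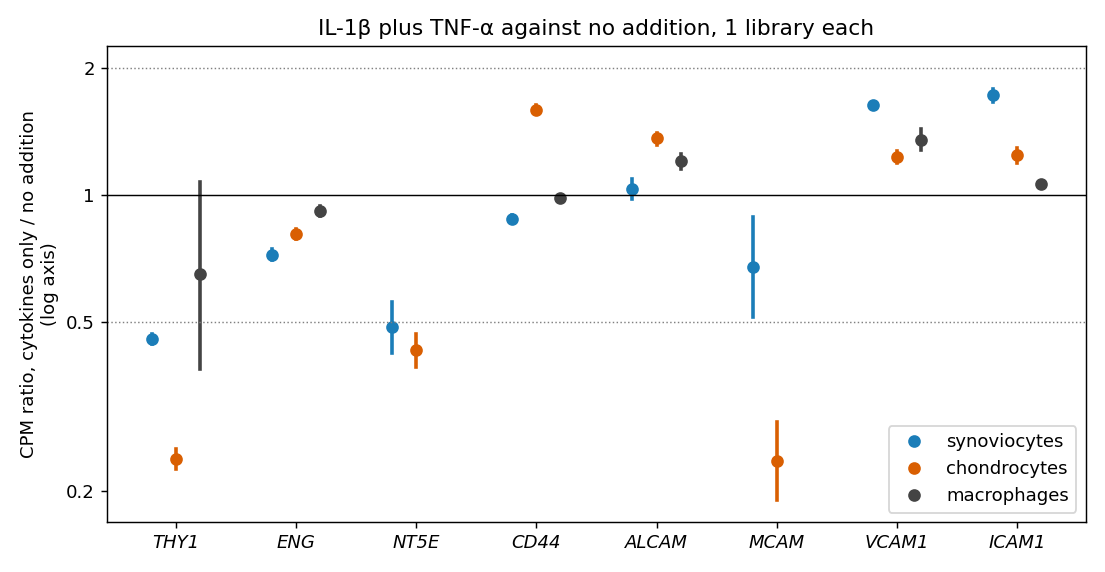
Ratio of CPM in cells given the cytokines to cells with no addition, on a log axis, for each gene with at least 10 counts in the pair; bars are exact 95% counting intervals and dotted lines mark 2-fold either way. THY1 and NT5E are below 1 in synoviocytes and chondrocytes, and VCAM1 and ICAM1 are above 1 in all 3 cell types.

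The chondrocyte libraries labelled ORC, read as medium of donor ORC, stood apart at 7 of the 8 members. Whether this follows the donor of the medium, the joint cells, the well or the label cannot be told apart. In the 3 libraries with ORC media and the 6 with PC or AG1 media, the values did not overlap for THY1, ENG and MCAM, which were higher with ORC media, and for CD44, ALCAM, VCAM1 and ICAM1, which were lower. Of all genes tested, 37.3% did not overlap in this way, and the split was noticed in the data, so no test is given. VCAM1 was at 18.8 to 30.1 CPM with ORC media against 234 to 281 with the others. THY1 was at 207, 237 and 192 CPM against 44.96 to 72.8, and ALCAM at 86.3, 74.6 and 84.3 CPM against 267 to 314. CD44 was at 247 to 279 CPM against 490.4 to 582, ICAM1 at 85.5 to 132 against 175 to 220, MCAM at 11.2 to 11.4 against 2.82 to 4.22, and ENG at 304 to 319 against 247 to 283.

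Both chondrocyte libraries without MSC-CM carry the name ORC in their titles. The PC and AG1 values lay near the library with cytokines only. For THY1, MCAM and ENG the ORC values lay near the library with no addition (189, 13.3 and 321 CPM), whereas VCAM1, ALCAM, CD44 and ICAM1 with ORC media were below both that library (215, 215, 334 and 162 CPM) and the one with cytokines. The 14 genes of a cytokine response list moved with the split. Their mean log2(CPM + 1) was 6.49 to 7.02 with ORC media, 8.16 to 8.78 with PC or AG1 media, 8.74 with the cytokines only and 5.85 with no addition. The summed level of 10 stromal markers was 101000 to 115000 CPM with ORC media, 64200 to 78800 with the others and 109000 with no addition. The part of these differences in the members' values was not tested. In macrophages the libraries with ORC media also did not overlap the other 6 for ALCAM (176 to 231 CPM against 252 to 374) and ICAM1 (736 to 876 against 1003 to 1411), both lower as in chondrocytes, where 4.25% of all genes did not overlap. CD44 and VCAM1 went the other way from chondrocytes. Their medians in macrophages were higher with ORC media (1379 against 1260 CPM and 109 against 42.6), with overlap. The medians of THY1 and ENG were higher with ORC media as in chondrocytes, also with overlap. In synoviocytes 0 members separated by ORC media in this way, where 450 of 14584 genes did.

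**Figure D3:**
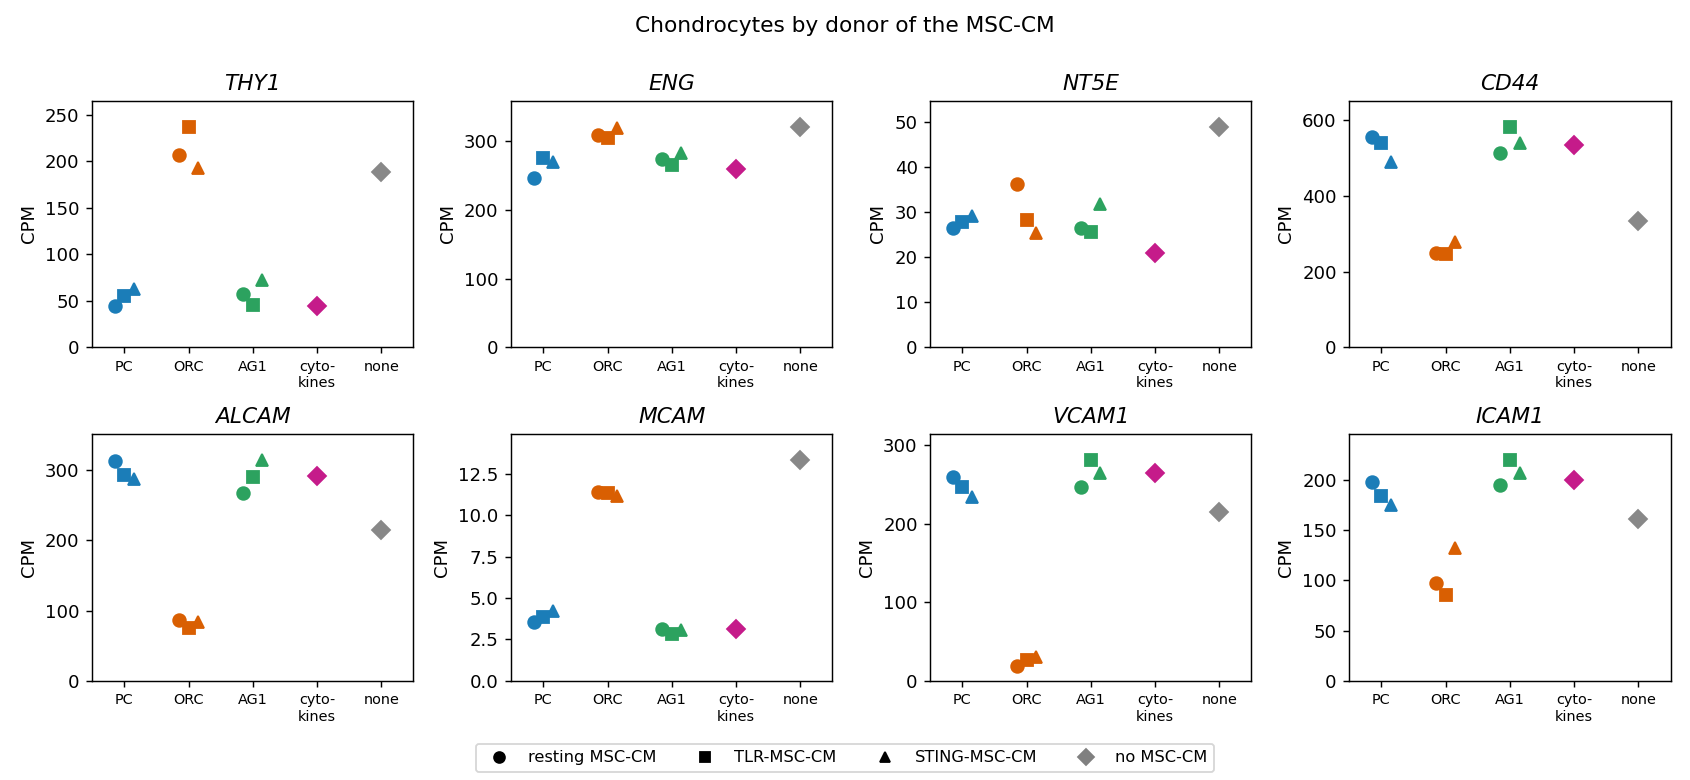
CPM of each gene in the 11 chondrocyte libraries, by donor of the MSC-CM (circles resting, squares TLR, triangles STING) with the cytokine-only and no-addition libraries as diamonds. With ORC media VCAM1 lies at 18.8 to 30.1 CPM and THY1 at 192 to 237, apart from the other media.

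Whether activation of the MSC changed the effect of their medium was asked by comparing TLR-MSC-CM and STING-MSC-CM with resting MSC-CM and with each other. In chondrocytes 0 of 8 members were called in any of the 3 comparisons, at an unadjusted edgeR p under 0.05 the count was also 0, DESeq2 called 0, and 0% of all genes were called. The medians of the members' log2 fold changes were 0.03 with TLR-MSC-CM, 0.01 with STING-MSC-CM and 0.01 between them. The SE was large for some, at 1.06 for VCAM1 and 0.80 for THY1 with TLR-MSC-CM. With the donor as a block edgeR and DESeq2 also called 0 members in the 3 comparisons. Without the ORC media 0 were called, and 1 member had an unadjusted edgeR p under 0.05 between STING-MSC-CM and resting medium, and 1 between the activated media.

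In synoviocytes 0 of 8 members were called in the 3 comparisons by edgeR or DESeq2, with 0% of all genes called by edgeR. ICAM1 was at 279, 363 and 305 CPM with resting medium of donors AG1, ORC and PC, at 305, 265 and 285 with TLR-MSC-CM, and at 279, 245 and 272 with STING-MSC-CM. With STING-MSC-CM it was lower in 3 of 3 donors, though in AG1 by a ratio of only 0.999, and the log2 fold change was −0.26 (SE 0.09, unadjusted p = 0.0126, edgeR adjusted p = 0.634). ALCAM was at 73.9, 136 and 91.9 CPM with resting medium, and at 66.2 to 85.3 with the activated media. Its log2 fold change was −0.32 (SE 0.16) with TLR-MSC-CM and −0.37 (SE 0.16) with STING-MSC-CM, lower in 2 of 3 donors each time, and the high value is the single ORC library. These 2 genes were the members with an unadjusted p under 0.05 after STING-MSC-CM, while for TLR-MSC-CM and between the activated media the count was 0. THY1 differed by 0.12 (SE 0.09) with STING-MSC-CM.

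In macrophages 0 members were called without the donor in the fit, by edgeR or DESeq2, with 0% of all genes called by edgeR in the 3 comparisons. THY1 was at 3.69, 3.36 and 3.11 CPM with resting medium of donors AG1, ORC and PC, at 5.17, 4.28 and 2.61 with TLR-MSC-CM, and at 2.15, 2.51 and 1.14 with STING-MSC-CM. STING-MSC-CM thus gave the lowest value in 3 of 3 donors, overlapping neither other group. The gap to TLR-MSC-CM was narrow (2.51 against 2.61 CPM), and no share of all genes without overlap is given. The macrophage libraries without MSC-CM were below resting and TLR-MSC-CM as well, at 1.10 CPM with the cytokines only and 1.70 with no addition. Its log2 fold change was −0.82 (SE 0.31, unadjusted p = 0.0236) against resting and −1.02 (SE 0.31, unadjusted p = 0.00777) against TLR-MSC-CM, with edgeR adjusted p-values of 0.907 and 0.727. With the donor as a block THY1 was called between STING-MSC-CM and TLR-MSC-CM (−1.02, SE 0.22, edgeR adjusted p = 0.0402), where 2.23% of all genes were called and no other member was. DESeq2 with the block called it as well (adjusted p = 0.00794, with 5.06% of all genes called), and against resting medium gave an adjusted p of 0.0501. The levels behind this are 34 to 196 counts per library. Summed stromal markers were at 1.48 to 32.1 CPM in the macrophage libraries, against 104000 to 138000 in synoviocytes, with the lowest sum in the AG1 library and the highest in the ORC library with TLR-MSC-CM, the libraries with the highest and next highest THY1. Of 9 stromal markers tested, 2 had a log2 fold change above 0 between STING-MSC-CM and TLR-MSC-CM (median −0.30) and 8 between TLR-MSC-CM and resting medium (median 0.49), the same directions as THY1, and 0 were called by edgeR with or without the block. The part of stromal RNA in the THY1 counts was not tested.

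VCAM1 in macrophages varied with the donor of the medium. It was at 35.6, 188 and 169 CPM with resting medium of AG1, ORC and PC, at 8.44, 92.4 and 115 with TLR-MSC-CM and at 27.7, 109 and 49.5 with STING-MSC-CM, lower with both activated media in 3 of 3 donors, with overlapping groups. The log2 fold changes were −0.90 (SE 0.85) and −1.09 (SE 0.85), with unadjusted p-values of 0.315 and 0.231 by edgeR. The 3 libraries with AG1 media did not overlap the other 6 for VCAM1 and ENG, which were lower, and for ALCAM, which was higher, where 14.5% of all genes did not overlap. CD44 was 0.22 lower on the log2 scale with TLR-MSC-CM (SE 0.12), lower in 3 of 3 donors, and was not called.

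**Figure D4:**
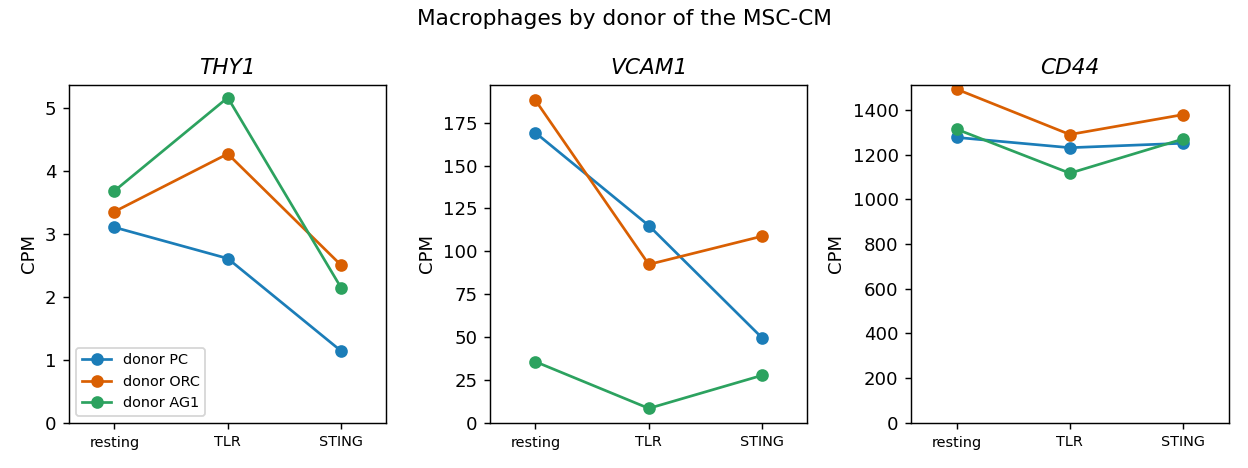
CPM of THY1, VCAM1 and CD44 in macrophages by donor of the MSC-CM; each line joins the 3 media of 1 donor. THY1 is lowest with STING-MSC-CM in all 3 donors (1.14 to 2.51 CPM), and VCAM1 is highest with resting medium in all 3.

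Interaction terms tested, for each pair of cell types, whether activated medium changed a member by different amounts. For both media and all 3 pairs 0 members were called by edgeR or DESeq2 without the donor, with 0% of all genes called by edgeR. NT5E, at 0 to 13 counts in macrophages, was the 1 member with an unadjusted edgeR p under 0.05, in the change with TLR-MSC-CM against both other cell types. With the donor as a block in DESeq2, THY1 in macrophages differed from synoviocytes (log2 −1.01, adjusted p = 0.00938, with 0.832% of all genes called) and from chondrocytes (−1.09, adjusted p = 0.00350, with 0.585% called) in its change with STING-MSC-CM. In edgeR with the donor as a block 0 of 8 members were called in either difference. The THY1 calls thus came from DESeq2 alone, in a fit chosen after seeing the data. Without the block the THY1 differences were −0.96 (SE 0.86) and −0.90 (SE 0.87) in edgeR.

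In MSC themselves, the levels of several members differed by donor, which was not tested. CD44 and ALCAM did not overlap between any pair of the 3 donors over their 4 libraries, as for 7.89% of all genes. CD44 was at 515 to 557 CPM in donor 92, 313 to 386 in donor 99 and 169 to 191 in donor PC, and ALCAM at 59.4 to 77.8, 6.37 to 14.3 and 34.2 to 45.3. Donor 99 was lowest for MCAM (15.1 to 38.8 CPM, against 82.6 to 180 in the others). Donor 92 was highest for THY1 and lowest for ICAM1 (32.6 to 49.4 CPM against 70.0 to 179). For these splits of a single donor from the rest no share over all genes is given. The condition is looser than that behind the 7.89%.

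Neither agonist called a member in the fit without the donor. In the 3 comparisons among untreated, TLR3-activated and STING-activated MSC, 0 of 8 were called by edgeR or DESeq2, 0 had an unadjusted p under 0.05, and 0% of all genes were called by edgeR. THY1 was at 597, 246 and 174 CPM in untreated MSC of donors 92, 99 and PC, at 566, 285 and 261 after the TLR3 agonist, and at 871, 505 and 325 after the STING agonist. It was higher after the STING agonist in 3 of 3 donors, by 1.46 to 2.05-fold, with a log2 fold change of 0.73 (SE 0.53), while the groups overlapped. ICAM1 was at 43.5, 179 and 148 CPM untreated, and at 32.6, 94.4 and 87.7 after the STING agonist, lower in 3 of 3 donors (−0.80, SE 0.59). After the TLR3 agonist it was at 49.4, 99.7 and 70.0 CPM (−0.69, SE 0.59), lower in 2 of 3.

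Since the libraries of a donor come from the same horse, the donor was added as a block. In edgeR THY1 was then 0.81 (SE 0.16) higher after the STING agonist, at an unadjusted p of 0.000697 and an adjusted p of 0.118, and ICAM1 −0.73 (SE 0.21), at an unadjusted p of 0.00707 and an adjusted p of 0.271. With this fit 0.0134% of all genes were called. DESeq2 with the block called both, THY1 at 0.78 (SE 0.18, adjusted p = 0.00135) and ICAM1 at −0.75 (SE 0.23, adjusted p = 0.0393), where 2.41% of all genes were called. ENG was 1.16 to 1.33-fold higher after the STING agonist in 3 of 3 donors (0.31, SE 0.26). VCAM1 was lower after the TLR3 agonist in 3 of 3 donors, at 16.7, 12.3 and 22.6 CPM against 18.2, 36.9 and 24.7 untreated (−0.59, SE 0.32), and was higher after the STING than after the TLR3 agonist in 3 of 3, whereas its difference from untreated after the STING agonist was −0.12 (SE 0.32). THY1 differed by 0.17 (SE 0.53) after the TLR3 agonist and by 0.56 (SE 0.53) between the agonists.

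The library labelled as TLR3-activated MSC of donor 92 had interferon response genes at or below the untreated level, so its label is in doubt and the tallies by donor above include it as labelled. The mean log2(CPM + 1) of 13 interferon response genes was 2.14 in it, against 7.05 and 8.44 in the TLR3 libraries of the other donors, 6.77 to 8.19 after the STING agonist and 2.37 to 2.79 untreated. Without it VCAM1 was lower after the TLR3 agonist in 2 of 2 donors, and ICAM1 likewise. Without donor 92 the log2 fold change of THY1 was 0.98 (SE 0.33) after the STING agonist and 0.45 (SE 0.32) after the TLR3 agonist, and that of ICAM1 was −0.85 (SE 0.27) and −0.87 (SE 0.27), with 0 members called. The CpG libraries were close to untreated. With edgeR 0 members were called, 0 had an unadjusted p under 0.05, DESeq2 called 0, 0% of all genes were called, and the members' ratios to the untreated library of the same donor ran from 0.669 to 1.33.

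**Figure D5:**
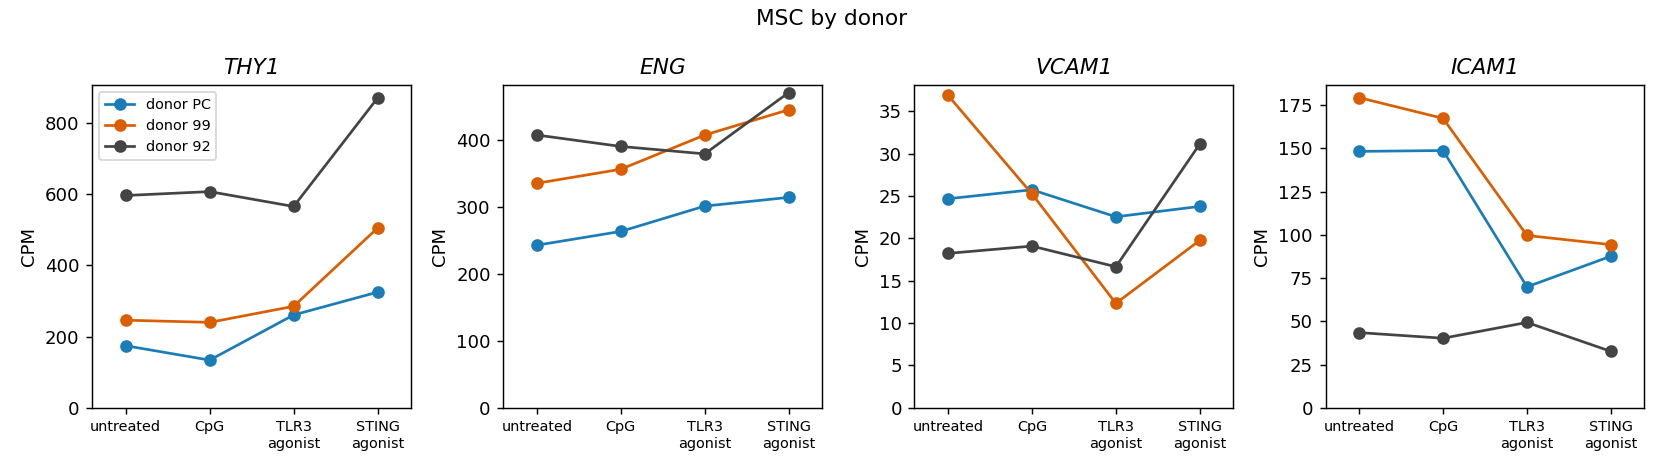
CPM of THY1, ENG, VCAM1 and ICAM1 in MSC by donor and condition; each line joins the 4 libraries of 1 donor. THY1 and ENG are higher and ICAM1 is lower after the STING agonist than untreated in all 3 donors, with overlapping groups.

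The genes whose pattern over the 15 joint-cell condition means of log2(CPM + 1) was most like a member's were named as a description, from 9834 genes. For THY1 they were EXD2 and AZI2 (Pearson's r of 0.995 each), for NT5E AEBP1 (0.997) and MEOX2 (0.996), and for VCAM1 TMOD2 (0.974) and MARK1 (0.969). For CD44 they were ASS1 (0.995) and MHCX1 (0.992), for ICAM1 CAP1 (0.992) and PTGDR (0.991), for ALCAM RAB5A (0.982) and GABPB1 (0.965), and for ENG KIF1A (0.966) and SLC2A9 (0.956). These correlations mostly separate the cell types, which differ at many genes, and the means share libraries and depth. Among the members NT5E and MCAM were most alike (0.979).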

How the data were processed

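Reads were trimmed with Cutadapt 1.12, aligned to EquCab3.0 with STAR, counted per gene with HTSeq 0.11.0 on the Ensembl annotation and reduced to protein coding genes by the authors. The deposited values are whole-number counts without normalization; the strand setting is not given in the sources used here. Antisense or overlapping transcripts of a gene could therefore share its counts.

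Genes with at least 10 counts in total were tested with edgeR 4.0.16 (TMM, quasi-likelihood test, R 4.3.3), with Benjamini-Hochberg adjustment over all genes tested and a threshold of 0.05. Each cell type was fitted over its replicated conditions, cell types over the libraries with resting MSC-CM, and interactions over the 27 joint-cell libraries. DESeq2 1.42.0 served as an alternative. A count of 3 was the floor. Single libraries were compared as ratios of CPM with exact 95% intervals that cover counting error only, since reads carry no molecular identifiers, with 2-fold as the limit. The rule for named genes took all members, at most 3 called genes per list and comparison, and the 2 genes most like each member, which are not reported here for MCAM. Partner genes whose levels are given as ranges were chosen after their values were seen.

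The members and lists were chosen with earlier results of these data known. No replicate pair agreed within sampling noise. Libraries of the same donor deviated together in MSC (median correlation 0.825, against −0.471 between donors), where they share an animal, and in chondrocytes (0.696) and macrophages (0.462), where they share the medium donor, but not in synoviocytes (0.0728). The scripts were tested on simulated data. Promoter and protein sequences were not used here.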

Additional observations from a re-analysis of the deposited data

How the results depend on the processing

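The counts of members called were recomputed under each alternative, of which 330 of 340 stayed within 1.5 times. With the replicate block (the donor as a paired term), 1 member was called between STING-MSC-CM and TLR-MSC-CM in macrophages, and no other count moved by over 1.5 times. With DESeq2 and the replicate block, chosen after seeing the data, 2 members were called after the STING agonist in MSC, 1 in macrophages between STING-MSC-CM and TLR-MSC-CM, and 1 in each of the differences of macrophages from synoviocytes and from chondrocytes in the change with STING-MSC-CM. Between chondrocytes and synoviocytes 1 to 5 members were called when 1 library was left out.

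Over all members and comparisons the sign of the log2 fold change differed in 285 of 2608 alternative values, 0 of them called in either fit. Of those printed, THY1 after the TLR3 agonist ran from −0.25 to 0.83 and VCAM1 after the STING agonist from −0.35 to 0.21 with 1 MSC library left out. CD44 in chondrocytes against synoviocytes was at 0.0258 without the ORC media. With 1 library left out it ran from −0.44 to 0.0419, ALCAM in macrophages against chondrocytes from −0.17 to 0.54, and VCAM1 there from −0.95 to 0.0474. Scaling by TMM moved 2 of 104 mean levels by over 1 SD, both of CD44 in synoviocytes. Leaving out the ORC media or MSC donor 92 was chosen after seeing the data. The causes were not tested. Depth limits NT5E and MCAM in macrophages, where most libraries were at the floor. The 3 replicates per group and the single donor of each joint cell type limit every comparison.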
